A study of Rattus norvegicus with 32 samples.

Results

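The solute carriers are the largest family of membrane transporters, and 173 probes for 150 of their genes could be followed in laser-captured CA3 pyramidal neurons of the rat hippocampus. They were taken from 345 probes of 256 genes on the array whose platform symbol begins with Slc, a family number, the letter a and a member number, with the glial glutamate transporters Slc1a2 and Slc1a3 and the vesicular GABA transporter Slc32a1 (4 probes) set aside. Members were then selected on a measured value, the scanner's quality flag. A probe was kept where the scanner flagged it above local background on all 4 arrays of at least 1 of the 8 groups, a rule that also kept 17635 of all 33849 probes. The flags are measured values, so a high number of detected members is a consequence of the choice and not a result. By substrate the 173 probes were 33 for ions, 25 for mitochondrial carriers, 21 for zinc, 16 for amino acids, 14 for glucose and other sugars, 9 for neurotransmitters, 9 for nucleosides and nucleotide sugars, 4 for monocarboxylates and 40 for other organic solutes (vitamins, fatty acids, bile acids, urea, choline, organic anions). The remaining 2, Slc4a1ap and Slc7a6os, carry the prefix in their names but encode no carrier. The share of probes kept ran from 37.5% of 24 neurotransmitter probes to 75% of 28 zinc probes.

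Adult male Sprague-Dawley rats received sham surgery or fluid percussion traumatic brain injury (TBI), and injured rats were given saline (the group called TBI here), metyrapone (MT, 100 mg/kg) or carbenoxolone (CB, 30 mg/kg). The study's methods place every treatment before the injury. MT inhibits glucocorticoid synthesis, and CB is a liquorice derivative that blocks the enzyme regenerating active glucocorticoid. Neurons negative for the degeneration stain Fluoro-Jade, that is surviving cells, were captured at 4 h or 24 h, their RNA was pooled over rats and amplified, and each of the 2 pooled samples of a group was hybridised to 2 CodeLink whole-genome arrays. The groups were therefore sham, TBI, TBI+MT and TBI+CB at each time, with n = 2 pooled samples and 4 arrays each. The labels call the 4 h sham rats untreated where the methods give sham rats saline, and they differ from the study's methods on the number of rats in a pool, on the interval between drug and injury and on whether the hours ran from treatment or surgery.

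Neurons depend on these carriers at every step of signalling. Vesicular transporters load glutamate and zinc into synaptic vesicles, plasma membrane transporters retrieve transmitter, chloride cotransporters set the sign of the GABA response, and sodium-calcium exchangers clear the calcium that enters with activity. Glucose and lactate carriers bring in fuel, and the Slc25 family moves nucleotides, phosphate and amino acids across the inner mitochondrial membrane. CA3 is known for zinc-rich mossy fibre input and for its vulnerability after injury.

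Intensities are given as multiples of the array's median probe, and a difference between groups is a log2 difference of the means of 2 pooled samples with its standard error (SE). Levels are compared within a probe only. Duplicate arrays of a sample differed by a median of 0.133 (log2) over the members and pooled samples of a group by 0.667, so pooled samples of a group differed more than duplicate arrays of a sample. The share of all probes above background was 27.4% in TBI+MT sample 1 and 30.1% in TBI+CB sample 2 at 24 h and 37.8% to 64.5% in the other 14 samples. Header codes sort the arrays into 3 slide runs, read here as batches although no source names them so: both sham samples and TBI sample 1 at 4 h in the first, TBI+MT and TBI+CB at 24 h in the third and the rest in the second. Drug and run therefore cannot be told apart at 24 h, and at 4 h the within-run values rest on 1 TBI sample. Markers of pyramidal neurons (5 of 10 listed, among them Camk2a and Slc17a7) were above background on all arrays in each of the 8 groups. Of the other cells' lists, all 8 measured astrocyte markers were also above background on all arrays in 6 of the 8 groups, and all 6 measured oligodendrocyte markers in 7. In pooled tissue, fewer cells of a type and less RNA per cell cannot be told apart.

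Injury at 4 h was accompanied by higher signal over most solute carriers, and both drugs at 4 h by lower signal than in TBI without drug, but each shift was close to that of all probes. In TBI against sham at 4 h the members' median log2 difference was 0.37 and that of all probes 0.33. With MT it was -0.32 against -0.40, and with CB -0.17 against -0.28. These comparisons share the 2 TBI samples, so a high value there enters the injury and drug differences with opposite sign. Quantile normalization, which removes such a common shift, moved the members' medians to 0.06, 0.02 and 0.03, and members higher after TBI from 128 to 96 of 173 and members lower with MT and CB from 126 and 105 to 84 and 84.

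No member passed an adjusted p of 0.05 in limma in any of the 8 comparisons, in the F test over the 8 groups or in the 3 tests of a difference between 4 h and 24 h, and 0% of all probes did in each of these 12 tests. The smallest adjusted p of a member was 0.574, in the test between times for CB against TBI, and within a single time 0.592, in TBI+CB against TBI at 24 h. At an unadjusted p under 0.05 there were 3 members (1.73%, against 3.34% of all probes) in TBI against sham at 4 h and 4 (2.31% against 1.84%) at 24 h. Against TBI there were 8 (4.62% against 4.73%) with MT and 6 (3.47% against 3.44%) with CB at 4 h, and 8 (4.62% against 5.51%) and 14 (8.09% against 8.22%) at 24 h. MT against CB gave 1 (0.578% against 3.11%) at 4 h and 5 (2.89% against 5.07%) at 24 h, and the F test 7 (4.05% against 5.54%). The tests between times gave 1 (0.578% against 2.35%) for injury, 7 (4.05% against 4.67%) for MT and 15 (8.67% against 7.75%) for CB. What follows is therefore a description of levels, in which "higher" and "lower" report the values and the replicate spread and not a passed test. As a second measure, probes were counted whose means differed over 2-fold and whose samples did not overlap. In TBI against sham at 4 h 24 of 173 member probes (13.9%) were over 2-fold higher without overlap, against 14% of all probes, and 1 (0.578%) were over 2-fold lower without overlap, against 3.55%. In TBI+MT against TBI at 4 h 1 of 173 member probes (0.578%) were over 2-fold higher without overlap, against 4.89% of all probes, and 38 (22%) were over 2-fold lower without overlap, against 19.6%. In TBI+CB against TBI at 4 h 0 of 173 member probes (0%) were over 2-fold higher without overlap, against 2.18% of all probes, and 25 (14.5%) were over 2-fold lower without overlap, against 13.4%. The shares of members higher after injury and lower with either drug were near the background.

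**Figure D1:**
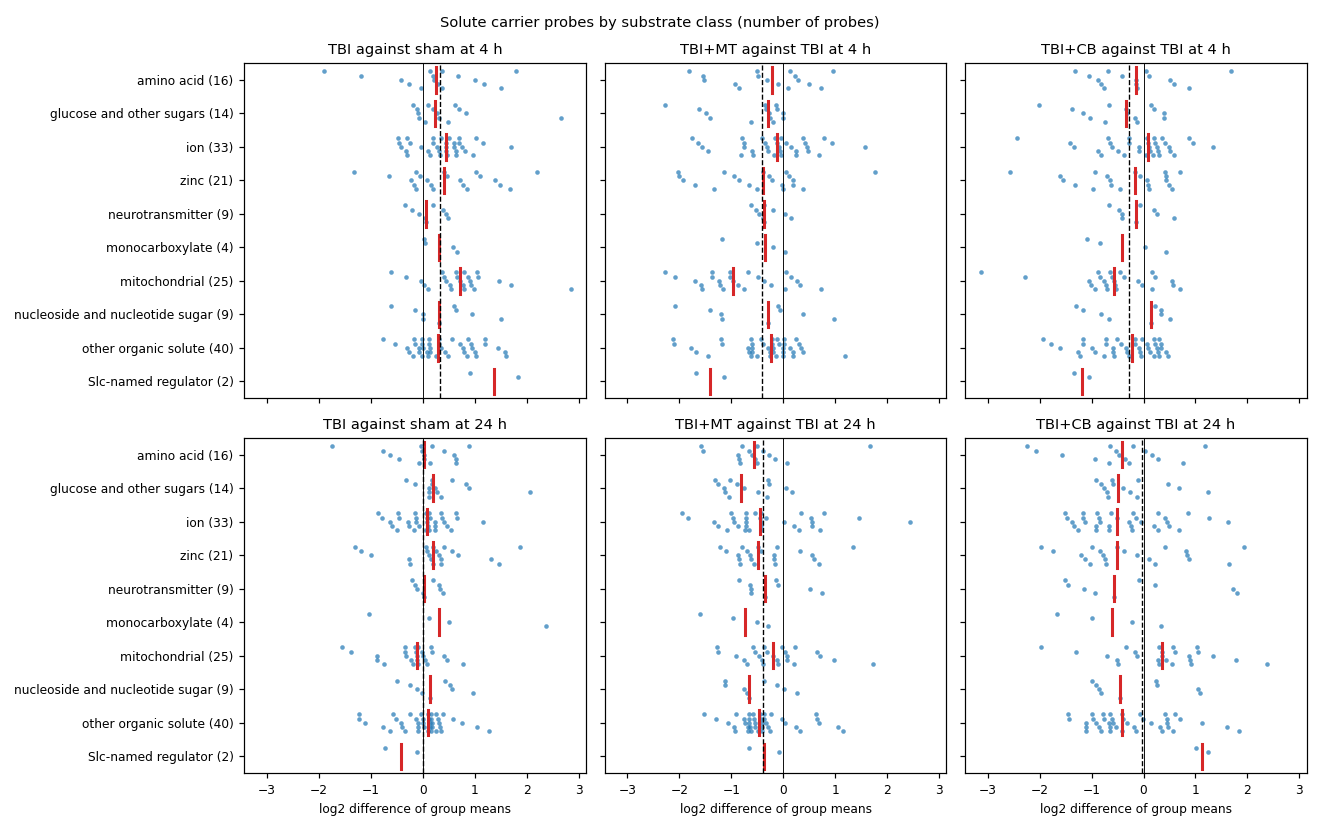
Each point is 1 of the 173 solute carrier probes, placed by its log2 difference of group means (horizontal axis) in its substrate class (vertical axis, with the number of probes). Red bars are class medians, the dashed line is the median of all probes and the solid line marks 0. At 4 h the mitochondrial median lies at 0.71 after TBI, -0.96 with MT and -0.57 with CB, beyond the dashed line each time.

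The 9 neurotransmitter probes had a median log2 difference of 0.07 in TBI against sham at 4 h, where all probes had 0.33. With MT it was -0.36, with 7 of 9 lower than TBI, and with CB -0.14, with 6 lower, near the -0.40 and -0.28 of all probes. Under quantile normalization 3 and 4 were lower. None was over 2-fold apart without overlap with injury or with either drug at 4 h. Slc17a7, the vesicular glutamate transporter of CA3 pyramidal cells, read 20.8 and 22.9 in sham, 20.2 and 26.0 after TBI, 18.3 and 16.9 with MT and 23.7 and 18.2 with CB at 4 h. At 24 h the values were 22.7 and 27.0 in sham, 25.5 and 31.0 after TBI, 20.0 and 17.0 with MT and 19.0 and 5.6 with CB. In 15 of 16 samples it lay between 16.9 and 31.0, and the low value of TBI+CB sample 2 at 24 h, one of the dim samples, carried a log2 difference of -1.45 (SE 0.55) against TBI. The neuronal glutamate and cysteine carrier Slc1a1 was above background on all 32 arrays, ranging over the 16 samples from 32.3 to 138, with a log2 difference of 0.45 (SE 0.53) in TBI against sham at 4 h and -0.47 (SE 0.53) with MT.

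Slc17a6, the vesicular glutamate transporter better known from subcortical neurons, was the exception at 24 h with CB, and both of its probes showed it. Probe GE1252050 read 3.22 and 2.38 after TBI and 8.31 and 11.1 with CB, a log2 difference of 1.80 (SE 0.86). Probe GE13530 was below background on all 4 TBI arrays and read 3.3 and 3.03 with CB, at least 2.61-fold higher. The CB samples did not overlap the TBI samples in either probe, and unlike Slc17a7 the dim sample was as high as its partner. TBI+MT at 24 h was split, at 1.6 and 13.5 on the first probe. Of the amine carriers, the vesicular Slc18a1 read 1.55 and 2.21 after TBI and 1.06 and 0.397 with CB at 24 h. Slc6a2, which takes up noradrenaline, read 2.53 and 2.64 after TBI and 1.41 and 0.967 with CB. The groups did not overlap in either, with 2 of 4 CB arrays above background for each. The glycine carriers Slc6a9 and Slc6a5 and the GABA carrier Slc6a11 differed by at most 0.589 (log2) in the injury comparisons and in drug against TBI at 4 h, while MT and CB were apart in Slc6a11 at 4 h without overlap (-0.95, SE 0.55, MT lower).

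**Figure D2:**
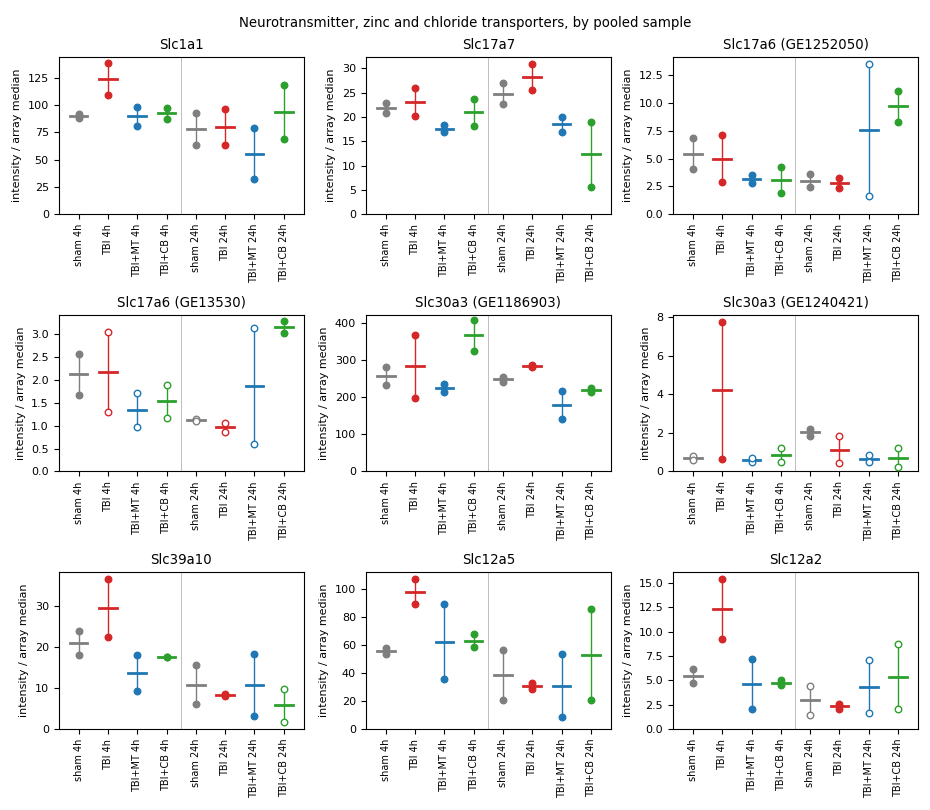
Points are the 2 pooled samples of each group (intensity as a multiple of the array median, linear axis from 0), bars their mean, and open points mark groups with fewer than 4 arrays above background. Slc17a7 stays between 16.9 and 31.0 in 15 of 16 samples, whereas Slc12a5 and Slc12a2 have their highest group mean after TBI at 4 h and samples far apart in the 24 h drug groups.

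Of the zinc carriers, the synaptic member differed by less than its error between TBI and the 3 other groups at 4 h, while MT lay below CB without overlap (-0.70, SE 0.46). Slc30a3, which fills glutamatergic vesicles with zinc, read 233 and 282 in sham, 198 and 368 after TBI, 234 and 215 with MT and 408 and 325 with CB at 4 h on probe GE1186903, and its log2 difference was 0.07 (SE 0.46) after injury, -0.27 (SE 0.46) with MT and 0.43 (SE 0.46) with CB. At 24 h it ran at 241 and 254 in sham, 281 and 285 after TBI, 217 and 139.6 with MT and 224 and 214 with CB. The second probe of the gene, GE1240421, was dim and discordant, at 0.659 and 7.75 in the TBI samples at 4 h, so the gene's account rests on the first probe. Over the 21 zinc probes the median was 0.41 in TBI against sham at 4 h, with 5 over 2-fold higher without overlap, -0.38 with MT, with 5 over 2-fold lower, and -0.17 with CB, with 3 over 2-fold lower. The shares of all probes in these directions were 14%, 19.6% and 13.4%. Of the 5 higher after TBI, Slc39a6 and Slc30a10 were kept through the 4 h TBI group alone. That count and the class medians at 4 h are therefore not independent of the choice of members. Under quantile normalization the class split evenly after TBI, with 10 higher and 11 lower.

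Among the importers of the Slc39 family, Slc39a6 had the smallest p of a zinc probe in TBI against sham at 4 h. Its 4 h values were 0.317 and 0.239 in sham, 1.02 and 1.59 after TBI, 0.13 and 0.776 with MT and 0.174 and 0.26 with CB, with 0 of 4 sham arrays, 4 of 4 TBI arrays, 2 of 4 MT arrays and 0 of 4 CB arrays above background. Slc39a6 was kept through the 4 h TBI group alone. This detection pattern and its rank by p are therefore not independent of the choice of members. The TBI samples lay above all others at 4 h, at least 1.76-fold above sham and with CB at least 1.23-fold lower than TBI, while the log2 difference with MT was -2.002 (SE 0.72). The bounds count from each array's lowest signal above background, and the fitted difference from sham was 2.21 (SE 0.72). Over the 8 groups the mean of Slc39a6 was highest with CB at 24 h and lowest with CB at 4 h, with 9 of 32 arrays above background. Its CB difference at 24 h minus that at 4 h was 2.99 (SE 1.01), which did not pass the test. Slc39a10 stayed above background on all arrays of 7 groups and read 23.9 and 18.1 in sham, 22.3 and 36.5 after TBI, 9.3 and 18.0 with MT and 17.6 and 17.5 with CB at 4 h, a log2 difference of -1.14 (SE 0.91) between MT and TBI without overlap. At 24 h the same probe read 7.99 and 8.35 after TBI and 1.74 and 9.8 with CB. Slc39a7, which releases zinc from the Golgi and endoplasmic reticulum, was higher after TBI (log2 difference 1.10, SE 1.17) on probe GE1250600 and 0.78 (SE 0.89) on GE13765. Slc39a14 (GE1170387) ran the other way in the drug comparison, at 1.77 and 0.264 after TBI and 2.47 and 2.21 with MT at 4 h, with only 2 TBI arrays above background, and its difference from sham turned sign without TBI sample 2.

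Exporters of the Slc30 family included Slc30a5 and Slc30a9, which load zinc into the secretory pathway or act in the nucleus and mitochondria. Slc30a5 read 1.9 and 2.03 in sham, 4.31 and 7.11 after TBI, 0.694 and 4.23 with MT and 1.8 and 1.84 with CB at 4 h, higher after TBI (log2 difference 1.496, SE 1.17) and lower with CB (log2 difference -1.61, SE 1.17), with no overlap in either. Slc30a9 had discordant probes: GE12513 differed by 1.38 (SE 1.07) after TBI at 4 h and -2.02 (SE 1.07) with MT, GE13986 (log2 difference -0.22, SE 0.43) and 0.00 (SE 0.43). Slc30a2, a vesicular exporter, was measured at 24 h at 1.06 and 1.64 in sham, 2.22 and 1.997 after TBI, 1.32 and 0.624 with MT and 0.64 and 0.616 with CB, lower than TBI in all 4 drug samples. The MT samples were below background on all arrays there, at least 1.6-fold lower, and 1 of 4 CB arrays was above it, with a log2 difference of -1.75 (SE 0.55). In MT sample 1 the lowest signal above background was 1.79 and 2.02, near the TBI values, so the bound holds for the MT mean and not for each sample. The exporter Slc30a1 and the metallothionein Mt2A were not above background in all arrays of any group.

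Glucose carriers shared a direction with MT. In TBI+MT against TBI at 4 h all 14 sugar probes were lower, with a median of -0.30, 4 of them over 2-fold without overlap (19.6% of all probes), and at 24 h 12 of 14 were lower with a median of -0.82. The median of all probes was itself -0.40 at 4 h and -0.39 at 24 h, and after quantile normalization 9 and 12 of 14 were lower. Slc2a1, the main glucose carrier of the blood-brain barrier that neurons and glia also use, was above background on all 32 arrays with both probes. Probe GE1174282 read 14.7 and 36.1 in sham, 28.9 and 58.7 after TBI, 13.4 and 16.3 with MT and 21.1 and 16.0 with CB at 4 h and 13.9 and 10.9 in sham, 16.9 and 30.7 after TBI, 6.54 and 16.3 with MT and 28.7 and 15.2 with CB at 24 h. Probe GE19666 read 9.5 and 24.3 in sham, 17.7 and 31.0 after TBI, 8.14 and 9.5 with MT and 14.1 and 9.41 with CB and then 7.87 and 7.26 in sham, 10 and 17.9 after TBI, 4.74 and 8.89 with MT and 16.8 and 9.24 with CB. Both probes gave the same order: the MT samples lay below both TBI samples at each time, with log2 differences of -1.48 (SE 0.65) and -1.41 (SE 0.61) at 4 h and -1.14 (SE 0.65) and -1.04 (SE 0.61) at 24 h. CB was lower at 4 h, (log2 difference -1.17, SE 0.65) and -1.02 (SE 0.61), and overlapped TBI at 24 h. Against sham, TBI was higher at 24 h without overlap, (log2 difference 0.89, SE 0.65) and 0.82 (SE 0.61), and overlapped sham at 4 h. The endothelial and pericyte markers, 7 of 10 listed, summed to 44.8 and 49.6 in the TBI samples and 24.5 and 23.7 in the MT samples at 4 h, and to 59.6 and 75.0 and 43.5 and 35.6 at 24 h. Their part in the Slc2a1 difference was not tested.

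Slc2a9, a urate and hexose carrier of kidney and liver, had the smallest p of any member in TBI against sham at 4 h. Its intensities at 4 h were 0.177 and 0.322 in sham, 0.619 and 3.62 after TBI, 0.231 and 0.41 with MT and 0.544 and 0.255 with CB, and all 4 TBI arrays but no sham or CB array and 1 MT array were above background. Like Slc39a6, Slc2a9 was kept through the 4 h TBI group alone, so this pattern and its rank are not independent of the choice. The mean TBI signal was at least 2.07-fold above sham and with CB at least 1.45-fold below TBI, and the log2 difference with MT was -2.28 (SE 0.75). The 2 TBI samples were themselves 0.619 and 3.62, so the size rests mostly on sample 2. Sample 1 lay below the lowest signal above background of each 4 h sham array (0.665 to 0.793). Its level would not have been called above background there, so the bounds hold for the TBI mean and not for each sample. At 24 h the values were 0.25 and 0.195 in sham, 0.707 and 1.22 after TBI, 1.03 and 1.05 with MT and 2.24 and 2.16 with CB, where 1 TBI array and 3 CB arrays were above background.

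Slc2a9 and Slc39a6 kept the same order of groups at 4 h (TBI above sham, MT and CB), and their promoters are shown so that this can be read against their sequence, with Slc30a2, the zinc exporter that was lower with both drugs at 24 h, beside them. Both of the first pair were kept through the 4 h TBI group alone, so their shared order is not independent of the choice of members. The sequences are RefSeq promoters of rat build GRCr8, a window that starts upstream of the annotated start and ends shortly past it, and 126 of the 150 member genes had one. Capitals mark matches on either strand to the metal response element core (TGCGCNC or TGCACNC), the cyclic AMP response element TGACGTCA, the E-box CACGTG or the consensus glucocorticoid response element.
Slc2a9 (chr14:76560705-76561004, plus strand): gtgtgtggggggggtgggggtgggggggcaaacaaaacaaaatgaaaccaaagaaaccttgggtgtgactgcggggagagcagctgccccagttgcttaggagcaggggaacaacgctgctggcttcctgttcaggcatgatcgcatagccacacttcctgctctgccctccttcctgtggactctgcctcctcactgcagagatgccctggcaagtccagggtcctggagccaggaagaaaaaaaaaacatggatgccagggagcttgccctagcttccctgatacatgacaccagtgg
Slc39a6 (chr18:16160114-16160413, minus strand): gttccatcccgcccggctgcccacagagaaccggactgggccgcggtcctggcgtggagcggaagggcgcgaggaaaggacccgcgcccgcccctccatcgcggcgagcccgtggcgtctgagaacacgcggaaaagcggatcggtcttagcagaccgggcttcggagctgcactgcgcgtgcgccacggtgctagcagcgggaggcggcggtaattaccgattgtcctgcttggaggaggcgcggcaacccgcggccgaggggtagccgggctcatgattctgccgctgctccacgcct
Slc30a2 (chr5:151843201-151843500, plus strand): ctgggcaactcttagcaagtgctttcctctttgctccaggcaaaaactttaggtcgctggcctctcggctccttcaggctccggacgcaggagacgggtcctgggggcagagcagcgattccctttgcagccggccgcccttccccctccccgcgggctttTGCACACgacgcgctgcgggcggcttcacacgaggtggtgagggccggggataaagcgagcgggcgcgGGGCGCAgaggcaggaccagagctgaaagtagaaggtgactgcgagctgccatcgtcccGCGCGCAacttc

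Neither of the first pair held any of these motifs, and Slc30a2 held 3 metal response cores, 1 TGCACNC and 2 TGCGCNC. The motif TGCGCNC was found in 29 of 126 member promoters (23%) and 14.1% of all 33469 promoters, and TGCACNC in 18 and 12.2%. The 13 promoters of zinc genes held TGCGCNC in 5 cases and TGCACNC in 2. CACGTG stood in 17 member promoters (13.5%) and 6.42% of all, TGACGTCA in 3 (Slc25a25, Slc25a33 and Slc45a1) and 1.83%, and the glucocorticoid element in no member promoter and 0.439% of all. The member shares count 1 promoter per gene. The shares of all promoters were not reduced in this way or limited to genes on the array, and GC content was not matched. The shares are therefore of unlike sets, and a difference between them is not a result about the members. These matches describe letters in a short window and not binding.

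Of the remaining sugar carriers, Slc45a4 read 10.9 and 8.7 in sham, 12.8 and 19.7 after TBI, 3.23 and 8.21 with MT and 5.001 and 7.5 with CB at 4 h, lower with MT (log2 difference -1.63, SE 1.000) and with CB (log2 difference -1.38, SE 1.000), both without overlap. Slc2a6, a lysosomal hexose carrier, and Slc2a13, the proton-coupled inositol carrier of brain, had log2 differences near 0 at 4 h, of -0.07 and -0.11 after injury and -0.12 and -0.01 with MT. At 24 h with MT they differed by -1.11 (SE 0.50) and -0.89 (SE 0.44). Slc50a1, a Golgi sugar carrier, had no MT array above background at 24 h, at 0.71 and 0.686. The neuronal glucose carrier Slc2a3 was not above background in all arrays of any group and is not described.

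**Figure D3:**
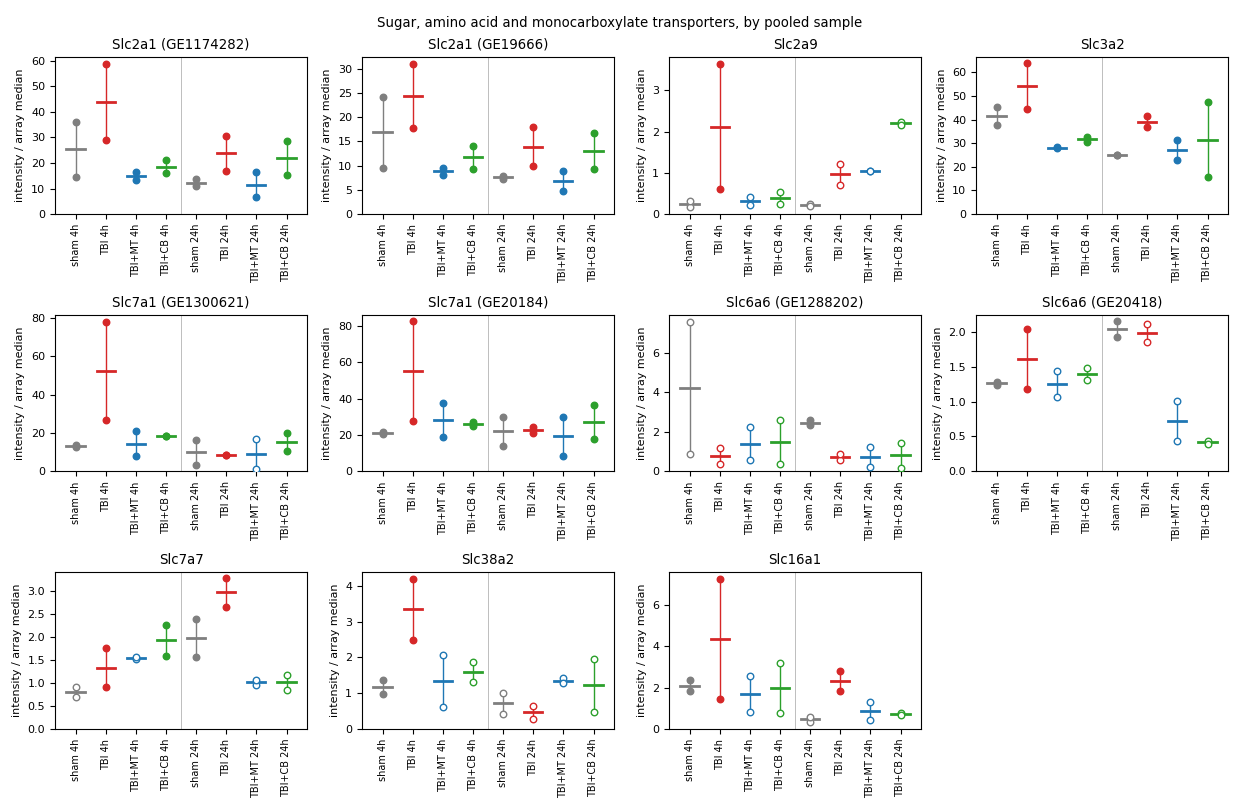
Points are the 2 pooled samples of a group (intensity as a multiple of the array median, linear axis from 0), bars the mean, and open points mark groups with fewer than 4 arrays above background. Both Slc2a1 probes and both Slc7a1 probes have their highest group mean after TBI at 4 h, the probes of Slc6a6 differ from each other, and Slc7a7 reads 3.28 and 2.66 in TBI at 24 h and 0.961 and 1.07 with MT.

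The 16 amino acid probes had a median of 0.25 in TBI against sham at 4 h, -0.21 with MT and -0.15 with CB, and under quantile normalization -0.10, 0.22 and 0.10. At 24 h 14 of 16 were lower with MT than in TBI (median -0.57, 13 lower under quantile normalization, and -0.39 for all probes) and 11 with CB (median -0.42). Without TBI+MT sample 1 the MT count was 10 of 16 and the median -0.31, where all probes had 0.06. The cationic carrier Slc7a1 was higher after TBI at 4 h on both probes. GE1300621 read 12.6 and 13.5 in sham, 26.7 and 77.9 after TBI, 7.96 and 21.1 with MT and 18.3 and 18.5 with CB and GE20184 read 21.7 and 20.7 in sham, 27.9 and 82.5 after TBI, 18.8 and 37.6 with MT and 27.2 and 25.3 with CB. The TBI samples lay above sham without overlap, (log2 difference 1.80, SE 1.05) and 1.18 (SE 0.73), with TBI sample 2 well above sample 1. Slc38a2, the adaptively regulated glutamine and alanine carrier, followed the same order at 0.968 and 1.36 in sham, 2.5 and 4.2 after TBI, 0.622 and 2.06 with MT and 1.3 and 1.87 with CB, a log2 difference of 1.4995 (SE 0.79) after injury, -1.52 (SE 0.79) with MT and -1.05 (SE 0.79) with CB. By 24 h it was below background on all TBI arrays. The heavy chain Slc3a2, partner of several Slc7 carriers, read 45.1 and 37.8 in sham, 44.5 and 63.9 after TBI, 28.2 and 28.0 with MT and 30.5 and 32.8 with CB at 4 h and 25.0 and 24.8 in sham, 36.7 and 41.6 after TBI, 22.7 and 31.5 with MT and 47.3 and 15.5 with CB at 24 h. Drug-treated samples lay below both TBI samples at 4 h, (log2 difference -0.92, SE 0.53) with MT and -0.75 (SE 0.53) with CB, and TBI above sham at 24 h (log2 difference 0.65, SE 0.53). Its light chain for large neutral amino acids, Slc7a5, was above background on all arrays of the 4 h CB group alone and scattered between samples, from 0.275 to 3.06.

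At 24 h, Slc6a6 and Slc7a7 were lower with both drugs. Slc6a6, the taurine carrier, read 1.93 and 2.15 in sham, 1.85 and 2.11 after TBI, 1.01 and 0.437 with MT and 0.434 and 0.398 with CB at 24 h on probe GE20418. No drug array was above background, so the mean level was at least 1.5-fold lower with MT and at least 2.02-fold lower with CB, and the latter had the smallest p of a member in any comparison (adjusted p = 0.592, limma). The lowest signal above background was 1.79 and 2.02 on the arrays of the dim MT sample 1 and 1.96 and 1.94 on those of the dim CB sample 2. These lie near the TBI values, so the bounds hold for the group means and not for each sample. The other Slc6a6 probe, GE1288202, had no array above background in TBI or either drug group at 24 h and 2.59 and 2.33 in sham, at least 2.12-fold lower after injury, so the probes disagreed on which contrast differed. Slc7a7, the light chain for cationic and neutral amino acids known from macrophages and epithelia, read 1.57 and 2.4 in sham, 3.28 and 2.66 after TBI, 0.961 and 1.07 with MT and 1.17 and 0.853 with CB at 24 h, with log2 differences of -1.54 (SE 0.48) and -1.56 (SE 0.48) against TBI. Microglial markers (8 of 9 listed) summed to 35.9 and 66.5 in sham, 147 and 131 after TBI, 169 and 112 with MT and 149 and 154 with CB at 24 h. Against TBI 7 of the 8 were lower with MT and 3 with CB, and their part in the Slc7a7 values was not tested. Both drug groups lay in the third slide run, so drug and run cannot be told apart. The lysosomal glutamine carrier Slc38a7 read 11.4 and 8.59 after TBI and 2.54 and 2.16 with CB at 24 h, a log2 difference of -2.08 (SE 0.94). Slc6a18, Slc6a7, Slc7a4, Slc7a9 and Slc38a10 differed by at most 0.51 (log2) with injury at either time and in drug against TBI at 4 h.

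Of the 4 monocarboxylate carriers, Slc16a1, which moves lactate and ketone bodies, was higher after TBI at 24 h. It read 0.325 and 0.58 in sham, 2.78 and 1.84 after TBI, 1.3 and 0.429 with MT and 0.764 and 0.658 with CB, with no sham array and all 4 TBI arrays above background, at least 2.03-fold higher. With MT it was at least 1.72-fold lower than TBI, and with CB the log2 difference was -1.67 (SE 0.92). The MT bound holds for the group mean and not for each sample, since the lowest signal above background in MT sample 1 was 1.79 and 2.02. At 4 h the samples of a group were far apart, at 1.47 and 7.26 after TBI, and overlapped between groups. Slc16a3, Slc16a11 and Slc16a13 differed from sham by 0.03, 0.58 and 0.04 at 4 h. 

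The ion class, at 33 probes, had a median of 0.44 after TBI at 4 h, -0.11 with MT and 0.09 with CB. The last lay on the other side of 0 from all probes, but not within slide runs. There, against TBI sample 2, the class medians were -0.52 with MT and -0.27 with CB, where all probes had -0.58 and -0.39. Under quantile normalization the class medians were 0.20 after TBI, 0.08 with MT and 0.31 with CB, so the MT median turned sign. The neuronal chloride extruder Slc12a5 was above background on all 32 arrays and read 53.2 and 58.1 in sham, 89.2 and 107 after TBI, 35.5 and 89.3 with MT and 58.2 and 67.7 with CB at 4 h. At 24 h it ran at 56.3 and 20.3 in sham, 28.1 and 32.9 after TBI, 8.17 and 53.5 with MT and 85.8 and 20.3 with CB, with up to several-fold spread inside the drug groups. TBI was above sham at 4 h (log2 difference 0.81, SE 0.90), and MT against TBI overlapped with -0.80 (SE 0.90). Its counterpart Slc12a2, which brings chloride in, showed the same order more clearly at 4.71 and 6.19 in sham, 9.29 and 15.5 after TBI, 2.07 and 7.15 with MT and 4.47 and 5.04 with CB, with 1.15 (SE 0.89) after injury, -1.64 (SE 0.89) with MT and -1.34 (SE 0.89) with CB, none of them overlapping. Against sham at 24 h the log2 differences of the pair were within their errors, at -0.15 (SE 0.90) and -0.14 (SE 0.89).

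Calcium exchangers differed between members. The potassium-dependent exchanger Slc24a3 was above background on all 32 arrays, ranged over the samples from 105 to 441 and differed by 0.31 (SE 0.57) after injury at 4 h and -0.76 (SE 0.57) with MT. Slc24a2 differed from TBI (log2 difference 1.57, SE 0.91) with MT and 1.35 (SE 0.91) with CB at 4 h, with overlap in both, since the TBI samples read 5.89 and 0.895, and without TBI sample 2 the CB difference turned sign. Slc24a4 read 1.42 and 1.64 in sham, 1.56 and 5.72 after TBI, 1.29 and 2.26 with MT and 1.53 and 1.75 with CB at 4 h and was below background on all arrays of sham, TBI and MT at 24 h. The sodium-calcium exchanger Slc8a3 was lower with MT at 4 h (log2 difference -1.46, SE 0.72) without overlap, from 26.4 and 49.7 to 12.5 and 13.96. For Slc8a1, probe GE20840 read 0.608 and 1.3 in sham, 1.35 and 1.09 after TBI, 1.73 and 1.67 with MT and 3.34 and 1.5 with CB at 4 h and 1.3 and 1.21 in sham, 1.39 and 1.86 after TBI, 0.725 and 0.557 with MT and 0.889 and 0.581 with CB at 24 h, lower than TBI with MT, at least 1.22-fold, and with CB (log2 difference -1.16, SE 0.54), while GE22172 differed by 0.58 with CB at 4 h and had at most 1 array above background per group at 24 h. The MT bound of GE20840 at 24 h holds for the group mean and not for each sample, since the lowest signal above background in MT sample 1 was 1.79 and 2.02. Slc8a2 read 1.44 and 1.997 after TBI at 4 h and 3.28 and 2.87 at 24 h.

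Among exchangers of protons, bicarbonate and anions, Slc4a10, a neuronal sodium-bicarbonate transporter, was within 0.72 (log2) in all 8 comparisons. The 3 probes of the proton exchanger Slc9a2 did not share a sign in TBI against sham at 24 h, at -0.27, -0.47 and 0.12. Slc13a4, a sulfate carrier of the choroid plexus and meninges, read 1.58 and 2.24 in sham, 2.09 and 2.3 after TBI, 1.37 and 0.239 with MT and 0.727 and 0.99 with CB at 24 h, below background on all MT arrays and at least 1.67-fold lower than TBI. The lowest signal above background in MT sample 1 was 1.79 and 2.02, near the TBI values, so that bound holds for the MT mean and not for each sample. Choroid plexus markers (3 of 5 listed) were 17.8 and 18.2 after TBI and 10.7 and 4.8 with MT at 24 h, and their part was not tested. Phosphate carriers did not share a pattern: Slc20a2 was lower with CB at 4 h (log2 difference -1.42, SE 0.54), at 0.43 and 0.802 against 1.52 and 1.63, and Slc20a1 at 24 h rested on 1 MT sample, 0.391 and 20.5, without which its sign against TBI turned. The copper carrier Slc31a2 was higher after TBI at 4 h (log2 difference 1.69, SE 1.02) and lower with MT (log2 difference -1.57, SE 1.02). It was kept through the 4 h TBI group alone, so these differences are not independent of the choice of members. The iron exporter Slc40a1 read 0.957 and 1.03 in sham, 0.713 and 3.63 after TBI, 0.487 and 0.47 with MT and 0.1 and 0.872 with CB. Several further ion, sugar and organic solute probes bear names known from kidney, liver or erythrocytes (Slc4a1, Slc12a1, Slc12a3, Slc2a2, Slc10a1, Slc22a6, Slc6a18). They were above background on all 4 TBI arrays at 4 h, and whether such probes read their named transcript was not tested.

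Of the classes with 4 probes or more, mitochondrial carriers had the highest median after TBI at 4 h and the lowest with either drug. After TBI 22 of 25 were higher than sham, with a median of 0.71 where all probes had 0.33, and 5 were over 2-fold without overlap. With MT 19 were lower than TBI (median -0.96 against -0.40), 11 of them over 2-fold without overlap, and with CB 19 were lower (median -0.57 against -0.28), 4 of them over 2-fold. Among all probes 14% were over 2-fold higher without overlap after TBI, and 19.6% and 13.4% lower with MT and CB. Under quantile normalization the class medians kept their signs at a smaller size, at 0.45, -0.34 and -0.22. Within slide runs the class median was 0.48 for TBI sample 1 against sham, and -1.27 and -0.73 for MT and CB against TBI sample 2, where all probes had 0.20, -0.58 and -0.39. No probe of the class passed the test. Slc25a13 and Slc25a15, both among the 5 over 2-fold higher after TBI, and Slc25a45 were kept through the 4 h TBI group alone. The class counts and medians at 4 h are therefore not independent of the choice of members.

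The adenine nucleotide translocators exchange ATP for ADP and are the most abundant carriers of the inner membrane. Slc25a4 read 47.2 and 52.8 in sham, 76.0 and 143 after TBI, 25.3 and 64.0 with MT and 66.6 and 76.2 with CB at 4 h, higher after TBI (log2 difference 1.06, SE 0.92) and lower with MT (log2 difference -1.37, SE 0.92), both without overlap, while CB overlapped TBI with -0.55 (SE 0.92). Slc25a5 read 135 and 151 in sham, 213 and 281 after TBI, 67.3 and 178 with MT and 116 and 128 with CB at 4 h, with 0.77 (SE 1.10), -1.16 (SE 1.10) and -1.01 (SE 1.10). Both drug groups lay below both TBI samples for Slc25a5. The glutamate carrier Slc25a22 read 42.6 and 28.5 in sham, 56.2 and 65.6 after TBI, 14.7 and 44.7 with MT and 40.1 and 34.5 with CB, lower with MT (log2 difference -1.24, SE 0.87). Slc25a46, an outer membrane protein of mitochondrial fission, read 212 and 208 in sham, 246 and 541 after TBI, 107 and 227 with MT and 198 and 213 with CB, lower with MT (log2 difference -1.22, SE 0.76). Others with this order at 4 h were the ATP-magnesium carriers Slc25a25 (0.99 after injury, -1.58 with MT) and Slc25a23, whose probe GE1264116 differed by 0.93 and -1.37, Slc25a30 on both probes, the uncoupling protein homologue Slc25a27 (1.04 and -1.03) and the citrate carrier Slc25a1 (0.91 and -0.87).

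The aspartate-glutamate carriers went separate ways. Slc25a12, the neuronal form, differed by -0.32 (SE 0.59) after TBI at 4 h and 0.73 (SE 0.59) with MT, and read 2.25 and 1.71 after TBI and 0.566 and 1.12 with CB at 24 h, where 1 of 4 CB arrays was above background. Slc25a13 read 0.123 and 1.3 in sham, 1.4 and 5.87 after TBI, 0.377 and 1.21 with MT and 0.43 and 0.246 with CB at 4 h, higher after TBI (log2 difference 2.85, SE 1.31), with 2 of 4 sham arrays above background and none with CB, at least 2.77-fold lower than TBI. The ornithine carrier Slc25a15 was also below background on all sham and CB arrays at 4 h, and TBI was at least 2.46-fold above the former. Its 2 TBI samples read 0.604 and 5.26, so this rests on sample 2. Sample 1 lay below the lowest signal above background of each 4 h sham array (0.665 to 0.793). Slc25a13 and Slc25a15 were kept through the 4 h TBI group alone, so these detection patterns are not independent of the choice of members. The iron importer Slc25a37 was flat at 4 h after injury (0.10) and 0.71 (SE 0.43) with CB. Slc25a33, a pyrimidine nucleotide carrier, was at -0.62 (SE 0.92) after injury, one of 3 carriers of the class below sham.

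**Figure D4:**
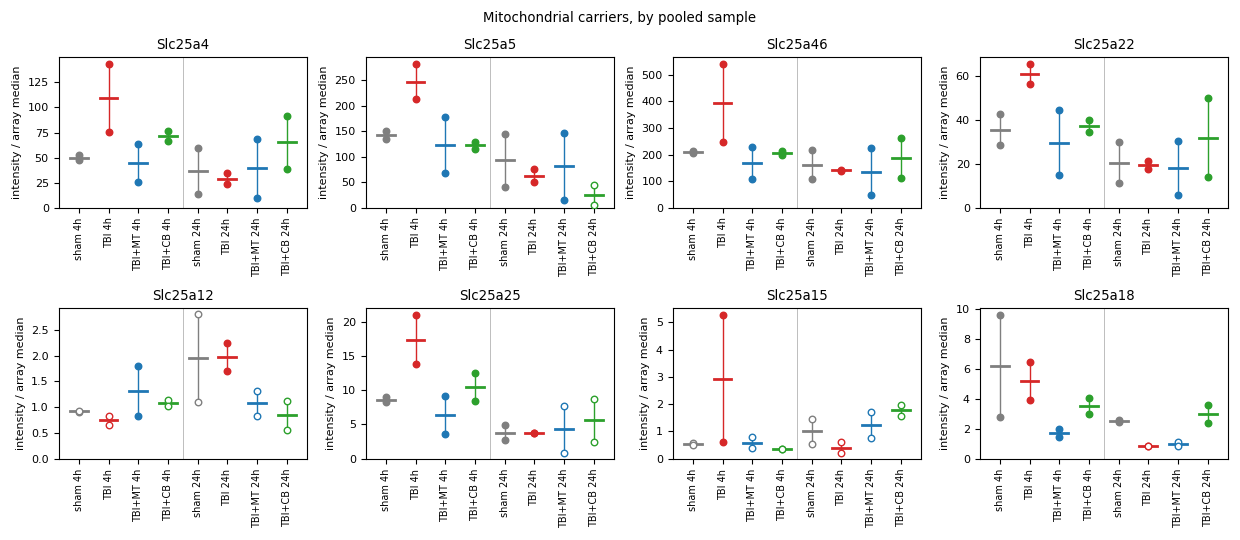
Points are the 2 pooled samples of a group (intensity as a multiple of the array median, linear axis from 0), bars the mean, open points groups with fewer than 4 arrays above background. Slc25a4, Slc25a5, Slc25a46, Slc25a22 and Slc25a25 have their highest group mean after TBI at 4 h, and their 2 samples lie far apart in each 24 h drug group.

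At 24 h the order differed. In TBI against sham 17 of 25 were lower with a median of -0.12, and in TBI+CB against TBI 17 were higher with a median of 0.37 against -0.04 over all probes. These values depended on single samples. Without TBI+CB sample 1 the CB median was -0.27 and without the dim sample 2 it was 1.29 (all probes -0.56 and 0.60). For MT the median was -0.20 with both samples, 0.72 without the dim sample 1 and -1.03 without sample 2. Without sham sample 1 the median of TBI against sham was 0.21, and without sham sample 2 it was -0.73. Slc25a18, a glutamate carrier known mainly from astrocytes, was less variable. It read 2.79 and 9.62 in sham, 3.92 and 6.5 after TBI, 1.49 and 1.96 with MT and 3.01 and 4.08 with CB at 4 h and 2.43 and 2.56 in sham, 0.846 and 0.853 after TBI, 1.12 and 0.856 with MT and 2.38 and 3.62 with CB at 24 h. The TBI samples at 24 h had no array above background and were at least 2.15-fold below sham, the CB samples were at least 2.53-fold above TBI, and at 4 h MT lay below TBI (log2 difference -1.56, SE 0.59). Astrocyte markers (8 of 9 listed) summed to 444 and 390.1 in sham, 319 and 399.8 after TBI and 566 and 271 with CB at 24 h, and their part was not tested.

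Several nucleotide sugar carriers of the Golgi had the mitochondrial order at 4 h. Slc35a3 (UDP-N-acetylglucosamine) read 1.4 and 2.16 in sham, 3.03 and 8.1 after TBI, 0.893 and 1.53 with MT and 2.45 and 3.25 with CB, higher after TBI (log2 difference 1.51, SE 1.05) and lower with MT (log2 difference -2.09, SE 1.05). Slc35a1 (CMP-sialic acid) was lower with MT (log2 difference -1.40, SE 1.07) and with CB (log2 difference -1.31, SE 1.07), and Slc35a5 (log2 difference -1.19, SE 0.89) and -1.16 (SE 0.89), all without overlap. Slc35a4 ran the other way, at -0.62 after injury and 0.98 with MT. The nucleoside and nucleobase carriers Slc28a1, Slc29a2 and Slc43a3 lay within 0.512 (log2) in the 3 main comparisons at 4 h, and Slc29a3 was lower with MT (log2 difference -1.18, SE 0.80). The regulators Slc7a6os and Slc4a1ap were higher after TBI (log2 difference 1.83, SE 0.83) and 0.90 (SE 1.08), and lower with both drugs, Slc7a6os (log2 difference -1.68, SE 0.83) and -1.34 (SE 0.83).

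The 40 probes for other organic solutes had a median of 0.29 after TBI at 4 h, -0.24 with MT and -0.22 with CB, where all probes had 0.33, -0.40 and -0.28. Under quantile normalization the class medians turned sign, to -0.09, 0.24 and 0.08. Slc22a17, an iron-siderophore receptor of brain, ranged over the 16 samples from 418 to 798. The lysosomal sialic acid carrier Slc17a5 had one of the 4 smallest p-values below sham after TBI at 4 h, at 46.6 and 32.2 in sham and 18.5 and 28.2 after TBI (-0.77, SE 0.60), as had Slc38a7 (-1.19, SE 0.94). The carriers of dicarboxylates and citrate in the plasma membrane varied more. Slc13a5, the neuronal form, read 0.637 and 4.28 in sham, 3.28 and 7.48 after TBI, 0.864 and 1.55 with MT and 4.99 and 1.82 with CB at 4 h, lower with MT (log2 difference -2.10, SE 0.95) without overlap, and was below background on all TBI arrays at 24 h, where sham read 0.736 and 1.88 with 1 array above background. Slc13a3 was lower with MT and CB at 4 h (log2 difference -1.20, SE 0.88) and -1.93 (SE 0.88) and after TBI at 24 h (log2 difference -1.23, SE 0.88). The folate carrier Slc19a1 was higher after TBI at 4 h (log2 difference 1.45, SE 1.12). The probes of the thiamine carrier Slc19a2 disagreed, GE16766 at 1.61 (SE 0.97) and GE1214185 at -0.02 (SE 0.60). Slc33a1, which imports acetyl-CoA into the endoplasmic reticulum, read 7.36 and 6.89 in sham, 9.66 and 27.2 after TBI, 2.78 and 8.1 with MT and 9.92 and 9.73 with CB, higher after TBI (log2 difference 1.19, SE 1.23) and lower with MT (log2 difference -1.77, SE 1.23). The creatine carrier Slc6a8 differed by 0.79 (SE 0.61) after injury, -0.60 (SE 0.61) with MT and -0.999 (SE 0.61) with CB, with no overlap. Both Slc27a1 probes (fatty acid uptake) lay within 0.161 (log2) in the injury comparisons and in drug against TBI at 4 h. Slc27a3, of the same family, was below background on all arrays of sham, TBI and MT at 24 h and had 2 of 4 CB arrays above it.

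Over all members, injury at 24 h left the median near 0 (0.08 against 0.01 for all probes). In TBI against sham at 24 h 6 of 173 member probes (3.47%) were over 2-fold higher without overlap, against 3.05% of all probes, and 7 (4.05%) were over 2-fold lower without overlap, against 5.02%. On the higher side the smallest p-values belonged to Slc2a9, Slc39a6, Slc16a1 and the exporter Slc30a10. All but Slc16a1 had at most 1 array above background in either group, so no fold is given for them. On the lower side were Slc25a18, Slc25a15, Slc16a11 (-1.04, SE 0.71) and Slc13a3. In TBI+MT against TBI at 24 h 5 of 173 member probes (2.89%) were over 2-fold higher without overlap, against 3.4% of all probes, and 18 (10.4%) were over 2-fold lower without overlap, against 10.6%. In TBI+CB against TBI at 24 h 15 of 173 member probes (8.67%) were over 2-fold higher without overlap, against 10.6% of all probes, and 23 (13.3%) were over 2-fold lower without overlap, against 12.6%. The members' medians were -0.48 with MT and -0.32 with CB, where all probes had -0.39 and -0.04. Without the dim CB sample the CB median was 0.28, with 0.60 over all probes. Every 24 h value of a drug against TBI carries the third slide run with it.

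In the MT comparison at 24 h the higher side was led by probes with no TBI array above background. Slc38a2 was at least 1.17-fold and Slc31a2 at least 1.68-fold higher with MT, with 1 and 2 of 4 MT arrays above background, and Slc25a15 read 0.748 and 1.7 with MT and 1.58 and 1.98 with CB, at least 1.52-fold above TBI with CB.

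The drugs were also set against each other. In TBI+MT against TBI+CB at 4 h 5 of 173 member probes (2.89%) were over 2-fold higher without overlap, against 6.69% of all probes, and 6 (3.47%) were over 2-fold lower without overlap, against 3.88%. The ascorbate carrier homologue Slc23a4 had the smallest p on the higher side, at 12.4 and 4.73 with MT and 4.24 and 1.71 with CB (1.51, SE 0.68), followed by Slc10a3, the anion exchanger Slc26a8 and the riboflavin carrier Slc52a2, which was below background on all CB arrays and at least 1.62-fold higher with MT. On the lower side were Slc25a18 (-1.04, SE 0.59), Slc6a11 (-0.95, SE 0.55), Slc19a2 and Slc25a30. In TBI+MT against TBI+CB at 24 h 4 of 173 member probes (2.31%) were over 2-fold higher without overlap, against 3.79% of all probes, and 6 (3.47%) were over 2-fold lower without overlap, against 6.76%. There Slc39a14 read 4.19 and 6.94 with MT and 1.24 and 0.704 with CB (2.53, SE 1.12), Slc18a1 was higher with MT (log2 difference 1.38, SE 0.54), and Slc25a18 and Slc39a13 (GE15581) were lower (log2 difference -1.58, SE 0.59) and -1.38 (SE 0.61). Slc39a11 and Slc24a4 rested on at most 2 arrays above background in a group, and Slc22a7 and Slc27a6 on none in MT.

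In the F test over the 8 groups the smallest p-values of members belonged to Slc2a9 (adjusted p = 0.625, limma), Slc25a18, Slc6a6 (GE20418) and Slc39a6. The contrasts were tested for a difference between times, as the 24 h log2 difference minus that at 4 h, and 0 members passed. For CB against TBI the smallest p-values belonged to Slc25a15 at 4.65 (SE 1.32), Slc7a7 at -2.15 (SE 0.68), Slc2a9 at 3.25 (SE 1.06) and Slc6a6 (GE20418) at -2.11 (SE 0.71), all with an adjusted p of 0.574 in limma. Slc25a15 was the only member with an unadjusted p under 0.05 for injury, at -3.08 (SE 1.32), higher than sham at 4 h and lower at 24 h, with no TBI array above background at 24 h. Because Slc2a9, Slc39a6 and Slc25a15 were kept through the 4 h TBI group alone, their ranks in these tests are not independent of the choice of members.

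Genes that work beside the carriers were read from a list of 34 chaperones, pumps, kinases and enzymes, of which 24 were measured. Each gene of this and the other lists was read from its probe with the highest mean. In TBI against sham at 4 h 22 of 24 were higher (median 0.60), 5 over 2-fold without overlap. With MT all 24 were lower than TBI (median -0.96), 9 over 2-fold, and with CB 23 were lower (median -0.64), 3 over 2-fold. Of all probes 12168 of 17613 were higher after TBI, and 12405 and 11146 of 17619 were lower with MT and CB. Over 2-fold without overlap in these directions were 14%, 19.6% and 13.4% of all probes. The list was not read under quantile normalization. None passed the test, and the list's medians, like the mitochondrial class, lay further out than those of all probes. The mitochondrial porins Vdac1, Vdac2 and Vdac3, which pass metabolites through the outer membrane, were at 0.51, 0.93 and 0.79 after injury and -1.04, -0.95 and -1.30 with MT (log2 differences). Hexokinase Hk2 differed by 1.73, -1.79 with MT and -1.82 with CB, and Hk1, the main form of neurons, by 0.07, -0.46 and -0.09. The pyruvate carrier subunit Mpc1 was at 0.92, -1.02 and -1.41. Of the chaperones of lactate carriers, Bsg was at 0.35 and Emb at 1.11 after injury. The 7 proton pump subunits, which energise vesicular loading, ranged from 0.27 to 1.60 after injury and from -1.49 to -0.50 with MT. The kinases that regulate chloride cotransporters, Wnk1 and Stk39, were at 1.02 and 0.67, then -1.12 and -0.67 with MT. The zinc sensor Mtf1 stayed at -0.07 with MT while the neuronal metallothionein Mt3 was at -1.05. At 24 h after injury the list was split 12 to 12.

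Solute carriers that mark other cells were grouped in the same way, and none passed the test. Of the endothelial list 6 of 8 were measured (among them Slc2a1, Slc7a1, Slc16a1 and Slc7a5), and 4 were higher after TBI and 5 lower with MT at 4 h. Of the neuronal list 10 of 13 were measured, with a median of 0.13 after TBI at 4 h, -0.33 with MT and -0.05 with CB. Of the astrocytic list 4 of 9 and of the meningeal and choroid list 3 of 8 were measured. Over the samples, the astrocyte marker sum was 428 and 846 in sham, 537 and 1297 after TBI, 309 and 421 with MT and 657 and 572 with CB at 4 h, and TBI sample 2 had the highest. In that sample the choroid plexus markers were 151, against 5.82 in TBI sample 1. The pyramidal markers were 1130.0 and 1789 there. The part of other cells in the 4 h differences was not tested.

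The 21 members kept through exactly 1 group had a median highest group mean of 1.78 times the array median, the 20 solute carrier probes left out with 3 of 4 arrays above background in their best group 1.15, and the other 152 left out 0.560. Of the 173 members 61 (35.3%) were above background on all 32 arrays, as were 35.0% of all probes kept. The members above background on all 4 arrays of a group numbered 139 (80.4%, against 84.3% of all probes kept) in sham, 154 (89.02% against 84.7%) after TBI, 125 (72.3% against 78.5%) with MT and 128 (74.0% against 72.8%) with CB at 4 h. At 24 h they numbered 116 (67.1% against 65.5%), 117 (67.6% against 68.5%), 81 (46.8% against 43.3%) and 84 (48.6% against 51.6%), and the shares of all probes were also lowest with the drugs at 24 h.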

How the data were processed

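RNA of Fluoro-Jade-negative CA3 neurons, captured by laser and amplified in 2 rounds, was hybridised to 32 CodeLink rat arrays by the authors. The deposited scanner files give each probe's raw intensity, its intensity divided by the array median, and a quality flag. Whether background had been subtracted is not stated in the sources used here, and the deposited table of the series holds intensities scaled in the same way. Here raw intensities were divided by the array median, floored at 0.1 and log2-transformed. Spots the scanner called irregular or masked had no value, and duplicate arrays were averaged, giving 16 pooled samples. Genes were named from the platform annotation. limma 3.58.1 in R 4.3.3 was fitted over the 8 groups on all 17635 probes above background on all 4 arrays of a group, with Benjamini-Hochberg adjustment over all probes and a threshold of 0.05. p-values measure the spread between pooled samples. A bound was taken against the lowest signal above background of each array. Classes were assigned from known substrates.

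The members and all lists were chosen with earlier results of these data known. Named were textbook transporters, the 4 members with the smallest p on each side of each comparison, the 3 with the smallest F test p of each class, and members called in any comparison, of which there were none. Other members are given as examples and were chosen after their values were seen. The scripts were tested on simulated data. Alternatives covered scaling, filters, floors, duplicate arrays, slide runs, the authors' table, pairing and each sample left out.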

Additional observations from a re-analysis of the deposited data

How the results depend on the processing

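The number of members called was 0 under each alternative run, the replicate block (sample number 1 or 2 as a block) and each sample left out included, so the block changed no call. The numbers do not pair the samples: over the 28 pairs of the 8 groups, both times included, the deviations of same-numbered samples correlated over 0.1 in 7 and under -0.1 in 9. The counts over 2-fold without overlap that follow are of members alone. No share over all probes was computed under the alternatives, so a changed count is not a result about the members. In the main run the counts were 25, 13, 39, 25, 23, 38, 11 and 10, for TBI against sham at 4 h and 24 h, MT and CB against TBI at 4 h, MT and CB against TBI at 24 h, and MT against CB at 4 h and 24 h. In that order they became 2, 1, 9, 4, 6, 6, 2 and 0 with probes above background on all 32 arrays, a filter that left 61 of the 173 members. With no filter, where dim probes enter, they became 42 and 33 for injury, 62 for CB at 4 h, 57 and 65 for MT and CB at 24 h and 35 and 45 for MT against CB. Quantile normalization gave 14 for TBI, 24 for MT and 11 for CB at 4 h, and slide run as a block gave 16 for TBI at 4 h. Fitting all 32 arrays gave 7 for TBI and 10 for MT at 24 h and 6 for MT against CB at 24 h. Leaving out both dim 24 h samples, an alternative chosen after seeing the data, gave 71 for MT, 75 for CB and 42 for MT against CB at 24 h, and a CB median of 0.28 in place of -0.32. With 1 sample left out, overlap is judged on 3 samples and the lone one is assumed to vary like the other groups. Counts then ran from 24 to 62 and 20 to 31 for injury at 4 h and 24 h, 21 to 75 for MT and 25 to 56 for CB at 4 h, 30 to 71 and 45 to 75 at 24 h, and 18 to 34 and 30 to 74 for MT against CB. The CB median at 24 h ran from -0.70 without TBI+CB sample 1 to 0.28 without sample 2. Medians ran from 0.17 to 0.62 and -0.0067 to 0.19 for injury, -0.60 to -0.20 for MT and -0.40 to -0.04 for CB at 4 h, -0.65 to -0.19 for MT at 24 h, and -0.32 to -0.07 and -0.58 to 0.20 for MT against CB. Single probes were followed only where they had 1 of the 4 smallest p-values on a side of a comparison (64 pairs of probe and comparison, 43 probes). That choice favours differences that keep their sign, so a low number of changes is not a result about the members. Of 1161 such values under alternatives, 5 turned sign. Slc39a14 in TBI against sham at 4 h was 0.0539 with slide run as a block and without TBI sample 2. With single samples left out it ran from -3.05 to 0.41. Slc24a2 in CB against TBI at 4 h was -0.0127 without TBI sample 2 and up to 2.71 without another sample. Slc20a1 in MT against TBI at 24 h was -0.41 without MT sample 2 and 5.30 without MT sample 1. Apart from what the alternatives' own construction shows, the cause was not tested. The normexp correction was not run, as the scanner files used here give no spot background, and slide run as a block could not be fitted for drugs against TBI at 24 h. Signal over background limits most members, since 61 of 173 were above it on all arrays.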
